A study of Mus musculus with 12 samples.

Results

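Interferon-stimulated genes were followed in the cortex of mice that lack GDE2, a membrane enzyme that releases proteins from their GPI anchor, and in WT cortex. The set held 35 genes, chosen by symbol, out of 36047 genes in the deposited table. All 35 were found under those names, and all 35 passed the filter on low values in each gene-level comparison. The bulk RNAseq libraries fell into 4 groups of 3 animals, which were WT at 4 months, *Gde2*KO at 4 months, WT at 19 months and *Gde2*KO at 19 months. The *Gde2*KO animals were *Gde2*-/- mice, the labels name no treatment, and the study used males and females without giving the sex of these animals. P-values for genes measure the spread between these libraries, while those for transcript usage pool that spread over the transcripts of a gene. Libraries of 4 months carry their label numbers, while those of 19 months have none and are named A, B and C by column. Values are normalized counts, which are Kallisto estimated counts divided by the size factor of the library and summed over the transcripts of a gene.

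Interferons act on neighbouring cells through surface receptors. Type I interferons bind IFNAR1 and IFNAR2, the kinases JAK1 and TYK2 phosphorylate STAT proteins, and these join IRF9 in a complex that binds the interferon-stimulated response element (ISRE) in promoters. Interferon gamma acts through another element, the gamma-activated site (GAS). The genes switched on in this way encode sensors of foreign nucleic acid, enzymes that block viral replication and proteins that amplify or end the signal, and in brain they are raised by glia, neurons and vessel cells when interferon is present.

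The promoters of the set were searched for both elements. Promoters of 26 of the 35 genes were found in a RefSeq table for GRCm38.p6, each as a window from 250 bases before to 50 bases after the start site. The ISRE core GAAANNGAAA, searched on both strands (TTTCNNTTTC on the other strand), occurred in 16 of these 26 genes (61.5%) and in 3.99% of all 27025 genes in the table. The GAS core TTCNNNGAA, which reads the same on both strands, occurred in 6 of 26 genes (23.1%) and in 9.55% of all genes. The letters of both motifs can overlap, and an ISRE match overlapped a GAS match in 1 gene of the set, *Bst2*. The stretches of 60 bases shown here hold the upstream ISRE core nearest to the start site in genes that recur in the results, and all ISRE cores inside a stretch are in capitals.
Isg15 (chr4:156200850-156200909, minus strand): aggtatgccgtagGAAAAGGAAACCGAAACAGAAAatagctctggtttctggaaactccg
Oas1a (chr5:120907526-120907585, minus strand): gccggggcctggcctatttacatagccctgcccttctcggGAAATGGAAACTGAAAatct
Bst2 (chr8:71537562-71537621, minus strand): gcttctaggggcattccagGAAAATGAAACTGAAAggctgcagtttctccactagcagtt
Ifit1 (chr19:34640779-34640838, plus strand): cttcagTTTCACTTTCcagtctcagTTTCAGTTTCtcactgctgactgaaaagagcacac
Ifit3 (chr19:34583382-34583441, plus strand): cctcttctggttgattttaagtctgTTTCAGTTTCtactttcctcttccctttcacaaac
Ifit3b (chr19:34607778-34607837, plus strand): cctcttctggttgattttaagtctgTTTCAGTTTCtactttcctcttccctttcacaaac
Gbp3 (chr3:142559980-142560039, plus strand): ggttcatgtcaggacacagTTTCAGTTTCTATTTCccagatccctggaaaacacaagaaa
Gbp5 (chr3:142496744-142496803, plus strand): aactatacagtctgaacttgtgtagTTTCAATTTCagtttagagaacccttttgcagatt

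*Isg15* held 3 overlapping cores. *Oas1a* and *Bst2* each held 2 overlapping cores. The stretches of *Ifit3* and *Ifit3b* were identical letter for letter. *Ifih1* and *Ddx58* had their single core after the start site. *Xaf1*, *Herc6*, *Ifit2*, *Irf7* and *Oasl2*, which recur below, had no ISRE core in the windows of this table.

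Levels differed widely between the genes. Per length, as the mean TPM over the 12 libraries, *Ifi27*, a small membrane protein, was highest at 81.9, followed by *Stat2* at 24.0 and *Xaf1* at 17.9, and *Oas3* was lowest at 0.439. The TPM were below 1 for *Rsad2*, *Oas1a*, *Zbp1*, *Ifi44*, *Oas2* and *Oas3*. None of the 10 interferon genes on a list of the pathway passed the filter on low values, 6 of them were listed at 0 in all 12 libraries, and the highest value of the others was 1.81 normalized counts.

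The 4-month libraries held 46434270 to 59728494 estimated reads. At 19 months 4 libraries held 36915259 to 44604721, while WT A held 6734475 and *Gde2*KO A held 3707928, so that 1 read was worth 4.66 and 8.29 normalized counts in these. In *Gde2*KO A the median gene of the set had 13.1 reads, 14 of the 35 genes had fewer than 10, and *Zbp1* had 0. The targeted gene, *Gdpd5*, was at 684, 702 and 1199 normalized counts in WT and 417, 585 and 403 in *Gde2*KO at 4 months (log2 difference -0.85, limma adjusted p = 0.463). At 19 months it was at 1065, 1129 and 952 in WT and 441, 456 and 560 in *Gde2*KO (log2 difference -1.11, limma adjusted p = 0.0111), and the genotypes did not overlap at either age. WT libraries 1 and 2 of 4 months stood apart. Hippocampal markers summed to 9040 and 7364 there against 545 to 1335 in the other 10 libraries and striatal markers to 2788 and 1835 against 3880 to 36309. In bulk tissue, fewer cells of a type and less RNA per cell cannot be told apart.

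**Figure D1:**
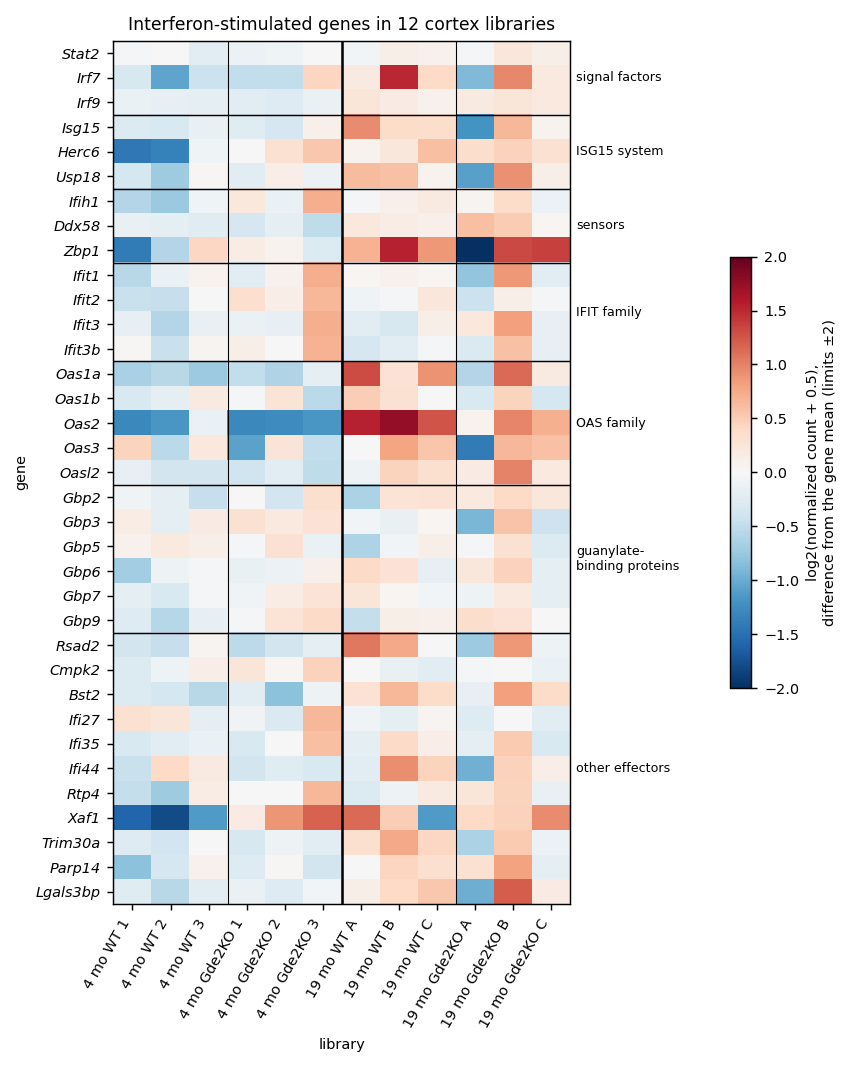
Each cell is the log2(normalized count + 0.5) of 1 interferon-stimulated gene in 1 cortex library, shown as the difference from the gene's mean over the 12 libraries, with colours limited at 2 in either direction; rows are grouped by role and columns by group. Red cells gather in the 19-month libraries for *Oas1a*, *Oas2* and *Irf7*, *Gde2*KO A is the lowest 19-month library for 16 of the 35 genes, and *Xaf1* is blue in the 3 WT libraries of 4 months and in WT C.

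At 4 months the question was whether loss of GDE2 changes interferon-stimulated genes before old age. *Xaf1*, which encodes a partner of the apoptosis inhibitor XIAP, was higher in *Gde2*KO, and it was the only 1 of the 35 genes called (2.86%). Among all 19035 genes tested, 0.105% were called higher. Calls are at a Benjamini-Hochberg adjusted p under 0.1 in limma and a log2 difference beyond 0.721 in either direction. Of the 35 genes, 25 (71.4%) had a positive log2 difference, as had 63.2% of all genes tested. The median was 0.21 for the set and 0.11 for all genes. With libraries rescaled by the median ratio the 2 medians were 0.11 and 0.01, and 21 of the 35 differences were positive, against 50.9% of all genes.

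*Xaf1* (ENSMUSG00000040483.15, chromosome 11, 72301629 to 72313733, plus strand) was at 110, 96.4 and 151 normalized counts in the WT libraries and at 373, 619 and 757 in the *Gde2*KO libraries of 4 months. The lowest *Gde2*KO library was above the highest WT library. Means were 119 ± 28.5 for WT and 583 ± 195 for *Gde2*KO (SD, n = 3 each), a log2 difference of 2.25 (standard error 0.29, limma adjusted p = 0.0626). With gene-level TPM, which weight short transcripts more, the log2 difference was 1.28 and the call was lost. The call was also lost without WT library 1, WT library 2, *Gde2*KO library 2 or *Gde2*KO library 3, while the log2 difference stayed between 2.03 and 2.54 when any 1 library was left out. Without both WT libraries high in hippocampal markers it was 1.88 and not called.

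The 5 listed transcripts of *Xaf1* differed unequally. ENSMUST00000146233.7, which is protein coding and has 1652 bases of its own at the 3′ end (11, 72312082 to 72313733), was at 32.9, 32.3 and 37.8 normalized counts in WT and at 299, 514 and 665 in *Gde2*KO. ENSMUST00000151440.7, also protein coding, was at 20.2, 9.87 and 25.4 in WT and at 28.6, 56.4 and 70.9 in *Gde2*KO, likewise without overlap. ENSMUST00000140842.8 went the other way, from 18.6, 17.2 and 19.3 in WT to 13.5, 10.8 and 0 in *Gde2*KO. The 4 transcripts other than the long one summed to means of 85.0 ± 25.5 for WT and 90.7 ± 15.8 for *Gde2*KO (SD, n = 3 each). In share of the gene's TPM the long transcript went from 9.82% ± 1.99 in WT to 52.4% ± 5.81 in *Gde2*KO (SD, n = 3), 42.6 points, and among the 22 genes of the set tested for usage *Xaf1* alone was called (limma diffSplice, adjusted p = 0.0296). Across all 12235 genes tested for usage at 4 months 0.997% were called. This call was lost without any 1 of the WT libraries. A two-sided exact permutation test on the long transcript gave p = 0.1, below which 3 libraries against 3 cannot go.

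At 19 months the long *Xaf1* transcript no longer separated the genotypes. It was at 603, 324 and 39.3 normalized counts in WT A, B and C and at 284, 333 and 516 in *Gde2*KO. WT C, a library of full depth, was at the level of the 4-month WT libraries, and the other 5 libraries were at the level of the 4-month *Gde2*KO libraries. The difference in its share of TPM was 4.20 points, and a two-sided exact permutation test on its log2 normalized counts gave p = 0.8. Means of the whole gene were 451 ± 290 for WT and 515 ± 114 for *Gde2*KO (SD, n = 3 each). Over all 12 libraries, 4 had 32.3 to 39.3 normalized counts of this transcript and 8 had 284 to 665, with none between.

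**Figure D2:**
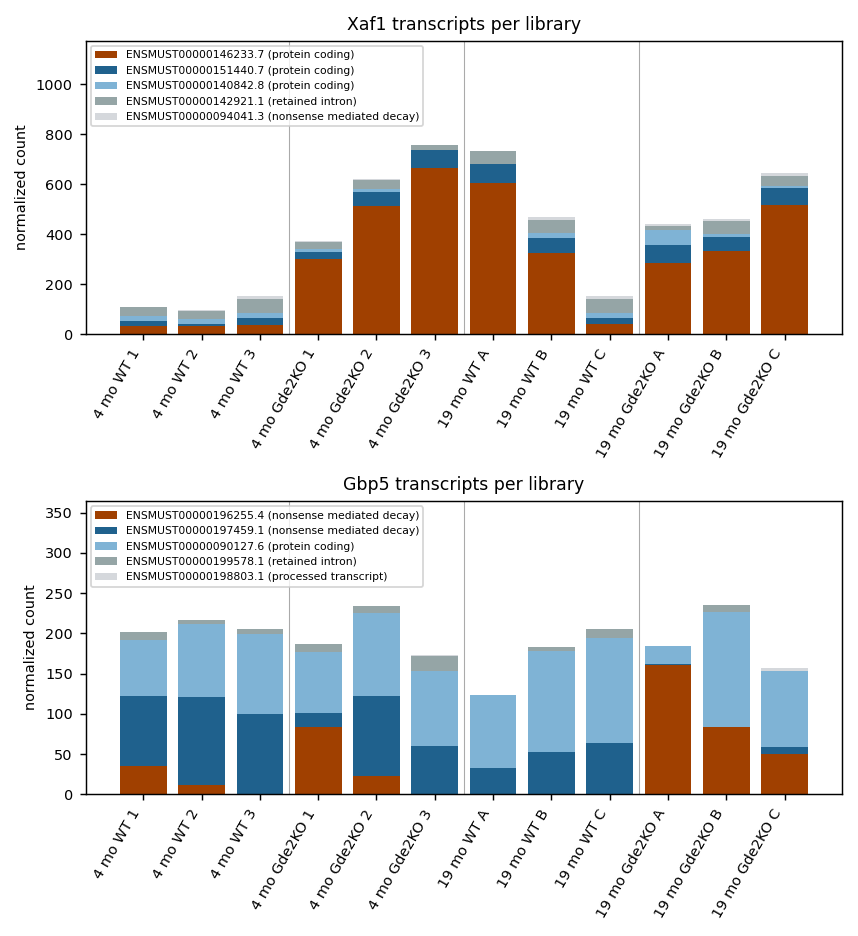
Bars stack the normalized counts of each listed transcript of *Xaf1* (upper panel) and *Gbp5* (lower panel) in the 12 cortex libraries. The long *Xaf1* transcript is at 39.3 or less in the 3 WT libraries of 4 months and in WT C of 19 months and at 284 or more in the other 8, and *Gbp5* ENSMUST00000196255.4 appears in all 3 *Gde2*KO libraries of 19 months, at 50.2 to 160, and at 0.0226 or less in the WT libraries of that age.

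*Herc6*, the ligase that attaches ISG15 to proteins in mice, did not pass the threshold. Its values were 229, 242 and 576 normalized counts in WT and 621, 762 and 889 in *Gde2*KO at 4 months (log2 difference 1.24, standard error 0.35, limma adjusted p = 0.463). The groups did not overlap, and WT libraries 1 and 2, high in hippocampal markers, were the low ones. Against WT library 3 alone the log2 difference was 0.38, while without WT library 3 *Herc6*, *Ifih1*, *Ifit2* and *Xaf1* were called, 11.4% of the set beside 8.03% of all genes.

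The IFIT proteins, which bind foreign RNA and block its translation, had 4 of 4 positive log2 differences, from 0.40 to 0.69. *Ifit2* was at 263, 260 and 357 normalized counts in WT and 455, 395.9 and 572 in *Gde2*KO, without overlap (log2 difference 0.69, standard error 0.20, limma adjusted p = 0.463). *Ifit3* and *Ifit3b* share much sequence. Of the 31-base words in *Ifit3* transcripts 61.8% also occur in *Ifit3b*, so the division of reads between both is uncertain.

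*Ifih1*, which encodes the RNA sensor MDA5, was at 133, 119 and 188 normalized counts in WT and 231, 181 and 328 in *Gde2*KO, and the groups overlapped (log2 difference 0.73, standard error 0.27, limma adjusted p = 0.463). The related sensor RIG-I, encoded by *Ddx58*, had a log2 difference of -0.14. The 3 signal factors *Stat2*, *Irf7* and *Irf9* had log2 differences from -0.04 to 0.41.

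Guanylate-binding proteins are GTPases that act on pathogens inside the cell. *Gbp9* was at 109, 87.7 and 116 normalized counts in WT and 126, 157 and 170 in *Gde2*KO (log2 difference 0.53, standard error 0.21, limma adjusted p = 0.463). *Gbp3* was at 139, 110 and 140 in WT and 154, 143.3 and 153 in *Gde2*KO (log2 difference 0.22, limma adjusted p = 0.579). Neither gene's groups overlapped, though the *Gbp3* difference was -0.02 in gene-level TPM. The range over the 6 guanylate-binding proteins was -0.08 to 0.53.

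The OAS enzymes make oligoadenylates that activate RNase L, and their log2 differences ran from -0.48 to 0.22, with 1 of 5 positive. In all, the *Gde2*KO libraries were above the WT libraries without overlap for 5 of 35 genes (14.3%), namely *Gbp3*, *Gbp9*, *Herc6*, *Ifit2* and *Xaf1*, and for 11.1% of all genes tested. An unadjusted p under 0.05 was reached by 5 of 35 genes (14.3%) and 10.6% of all genes. Both shares were close to those of all genes. *Gde2*KO library 3 was the highest of the 6 for 21 of the 35 genes (60%), and for 44.0% of all genes tested, and WT library 2 was the lowest for 13 (37.1%), against 17.03% of all genes. Microglial markers summed to 7427 to 9473 in WT and 9182 to 14141 in *Gde2*KO at 4 months, with library 3 of *Gde2*KO highest. T-cell markers summed to 90.2, 98.6 and 301 in WT and to 371, 326 and 797 in *Gde2*KO, without overlap, with WT libraries 1 and 2 lowest and *Gde2*KO library 3 highest. The part of these cells in the results was not tested.

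**Figure D3:**
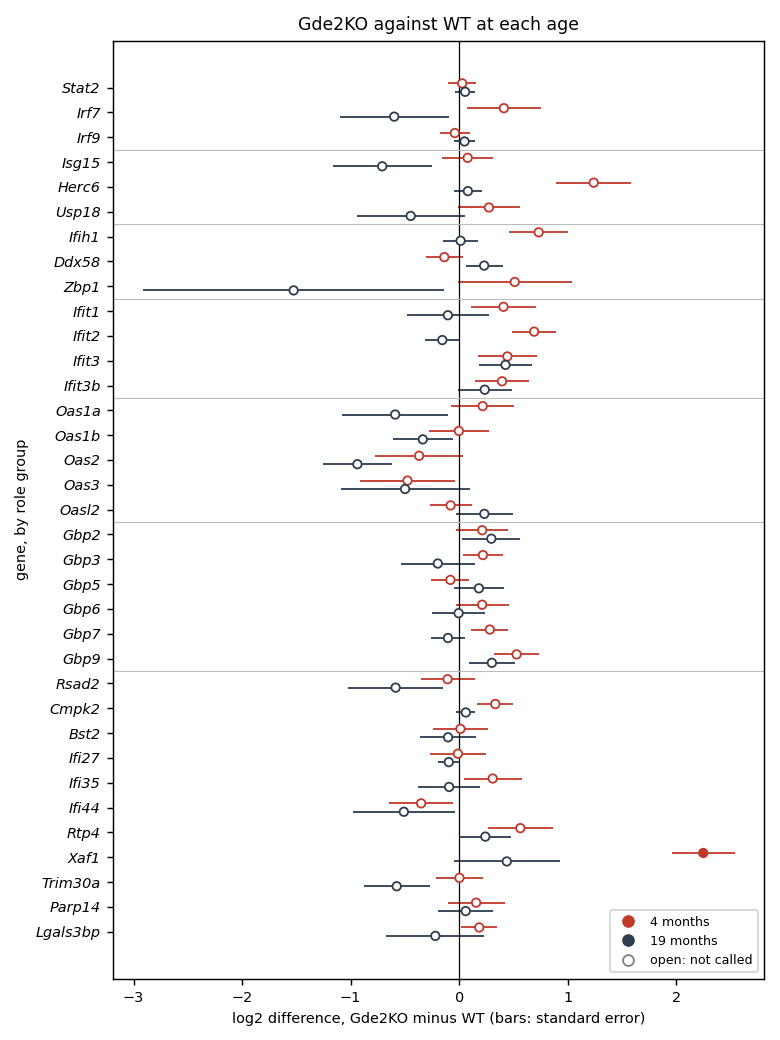
Points are log2 differences, *Gde2*KO minus WT, of each gene of the set at 4 months (red) and 19 months (dark blue), with bars for the standard error from limma (3 libraries against 3). The filled point marks the single called value, *Xaf1* at 4 months (2.25), and the others are open.

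At 19 months the same comparison was made in aged cortex, where the study followed neurodegeneration. None of the 35 genes was called by limma, and 1 (2.86%) had an unadjusted p under 0.05, against 6.91% of all 18583 genes tested. Of all genes 0.0969% were called. The set had 15 positive log2 differences (42.9%, against 44.6% of all genes) and a median of -0.10, and the median of all genes was -0.02. Without both libraries of low depth, 22 of the 35 were positive, against 48.0% of all genes, and the median of the set was 0.04.

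*Oas2* had the smallest p of the set. Its values were 69.9, 81.3 and 57.7 normalized counts in WT and 24.9, 47.1 and 39.0 in *Gde2*KO, so that every *Gde2*KO library was below every WT library (log2 difference -0.94, standard error 0.32, limma adjusted p = 0.652). The lowest value was in the shallow *Gde2*KO A, where 1 read was worth 8.29 normalized counts. In the other settings tried the log2 difference ran from -0.94 to -0.67, and with 1 library left out from -1.13 to -0.68. *Oas2* was the only gene of the set without overlap at this age (2.86%). Of all genes tested 8.32% were lower in *Gde2*KO without overlap.

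Other genes near the top of the list overlapped between genotypes. *Trim30a*, a ubiquitin ligase that restrains inflammatory signalling, was at 96.4, 131 and 103 normalized counts in WT and 49.8, 111 and 70.8 in *Gde2*KO (log2 difference -0.58, limma adjusted p = 0.731). *Isg15*, the ubiquitin-like protein whose promoter was shown first, was at 102, 68.3 and 68.0 in WT and 22.8, 84.2 and 55.9 in *Gde2*KO (log2 difference -0.71, limma adjusted p = 0.734). The low value was in the shallow library A, and without both shallow libraries the log2 difference was 0.01. *Ifit3* was at 198, 183 and 250 in WT and 265, 406 and 205 in *Gde2*KO (log2 difference 0.43, limma adjusted p = 0.734). *Gbp9* was at 93.2, 141 and 139 in WT and 166, 159 and 131 in *Gde2*KO (log2 difference 0.30, limma adjusted p = 0.744).

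The spread within *Gde2*KO at 19 months was wide. *Gde2*KO B was the highest of the 6 libraries for 17 of the 35 genes (48.6%) and the lowest for 0, while it was highest for 10.7% and lowest for 13.1% of all genes tested. *Gde2*KO A was the lowest for 16 of the 35 genes (45.7%), against 33.5% of all genes. *Lgals3bp*, a secreted glycoprotein, was at 166, 754 and 367 normalized counts in *Gde2*KO A, B and C and at 354, 433 and 474 in WT. *Ifit1* was at 49.8, 158 and 73.4 in *Gde2*KO and at 88.5, 91.5 and 88.8 in WT. Both genes had *Gde2*KO libraries on either side of all WT libraries. The lowest value of each was in *Gde2*KO A, the shallow library in which 1 read was worth 8.29 normalized counts. The part of depth in this spread was not tested. *Lgals3bp* and *Ifit1* were chosen after their values were seen, to show this spread. Microglial markers summed to 10812 in *Gde2*KO B and to 7593 to 8912 in the other 5 libraries of 19 months, and astrocyte markers to 32693 in *Gde2*KO B and to 22277 to 25514 in the other 5. Their part in the result was not tested.

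At 19 months 24 genes of the set were tested for usage, and 1, *Gbp5*, was called (limma diffSplice, adjusted p = 0.00124), while 0.171% of all 12253 genes tested were called. The gene as a whole (chromosome 3, 142493978 to 142522344, plus strand) was at 124, 183 and 205 normalized counts in WT and 184, 235 and 157 in *Gde2*KO, with overlap. Its transcript ENSMUST00000196255.4, annotated as a target of nonsense-mediated decay, was at 0, 0 and 0.0226 normalized counts in WT A, B and C and at 160, 83.1 and 50.2 in *Gde2*KO. A second transcript of that class, ENSMUST00000197459.1, was at 32.5, 52.0 and 63.5 in WT and at 1.41, 5.84e-07 and 9.12 in *Gde2*KO. The mean share of the first in the gene's TPM was 47.3% ± 32.1 (SD, n = 3) in *Gde2*KO, and that of the second was 26.9% ± 2.35 in WT and 2.17% ± 3.04 in *Gde2*KO. The genotypes did not overlap for either transcript (exact permutation test on log2 values, two-sided, p = 0.1 for each).

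The 2 *Gbp5* transcripts have no bases that are theirs alone among the listed transcripts. ENSMUST00000196255.4 holds a stretch of 940 bases (3, 142518120 to 142519059) that the protein-coding ENSMUST00000090127.6 lacks, and lacks stretches of 34 and 205 bases of it. It holds stretches of 8, 128, 110, 98 and 109 bases that ENSMUST00000197459.1 lacks. At 4 months the first transcript was at 35.1, 11.5 and 0.000134 normalized counts in WT and 83.3, 22.4 and 0.00332 in *Gde2*KO, with libraries of both genotypes high and low. The call of *Gbp5* held in each alternative, with a gain of 28.8 to 57.4 points.

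**Figure D4:**
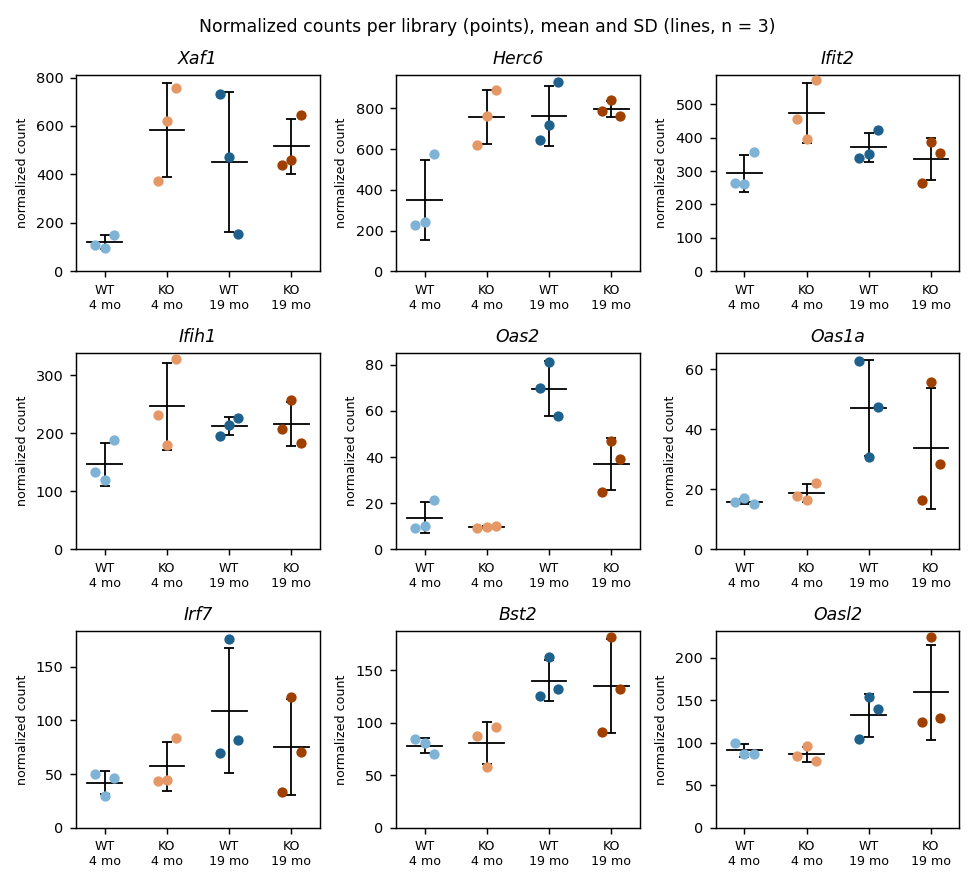
Points are normalized counts of 9 interferon-stimulated genes in each library, with the mean and SD of 3 libraries per group as lines, and KO stands for *Gde2*KO. *Xaf1* at 4 months separates the genotypes with 96.4 to 151 in WT against 373 to 757, and *Oas2* lies between 9.37 and 21.5 in all 4-month libraries and between 24.9 and 81.3 in all 19-month libraries.

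Whether the genotype difference itself changed with age was tested as an interaction over all 12 libraries, in which the 19-month difference is taken minus the 4-month difference. It shares every library with the comparisons above. By limma 0 of 35 genes and 0.0480% of all 18731 genes tested were called, at an adjusted p under 0.1. An unadjusted p under 0.05 was reached by 3 genes of the set (8.57%) and by 12.9% of all genes. These were *Ifit2* (-0.85), *Herc6* (-1.16) and *Xaf1* (-1.81), each with a limma adjusted p of 0.368. The median was -0.33 for the set and -0.15 for all genes, and with libraries rescaled by the median ratio, which moved the median of all genes by 0.12, the medians were -0.21 and -0.03. Without WT library 3 of 4 months 2 genes (5.71%), *Herc6* and *Ifit2*, were called, beside 10.95% of all genes.

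The 2 ages were then compared within each genotype. In WT, 6 of the 35 genes (17.1%) were higher at 19 than at 4 months and 0 lower, and of all genes tested 6.29% were called higher and 7.40% lower. In *Gde2*KO, 3 of 35 (8.57%) were higher and 0 lower, and of all genes 2.55% were called higher and 9.32% lower. Medians were 0.37 in WT and 0.09 in *Gde2*KO for the set, and -0.07 and -0.21 for all genes. The 2 ages were also 2 sets of libraries, with fewer estimated reads at 19 months, so age and library set cannot be told apart. The WT comparison was also made against WT library 3 alone, without the 2 libraries high in hippocampal markers. There 29 of the 35 log2 differences were positive, beside 43.4% of all genes. Medians were 0.24 for the set and -0.06 for all genes. A lone library gives no spread of its own, so no count of calls is given for that setting. Without WT library 2 of 4 months the WT count was 3 (8.57%), beside 8.23% of all genes. Without *Gde2*KO A of 19 months 6 genes (17.1%) were called in *Gde2*KO, *Ddx58* no longer among them, beside 11.63% of all genes. Rescaling moved the median of all genes by 0.17 in *Gde2*KO, to -0.04, and that of the set to 0.25, and the share of higher genes among all calls went from 21.5% to 43.8%.

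*Oas2* rose in both genotypes. It was at 9.37, 10.3 and 21.5 normalized counts in WT and at 9.40, 9.62 and 10.4 in *Gde2*KO at 4 months, and every 19-month library was above every 4-month library. The log2 difference between ages was 2.39 in WT (standard error 0.38, limma adjusted p = 0.00248) and 1.82 in *Gde2*KO (standard error 0.38, limma adjusted p = 0.0109). *Oas1a*, another synthase, rose in WT from 15.9, 16.99 and 15.04 to 62.8, 30.8 and 47.4 (log2 difference 1.47, limma adjusted p = 0.0336), and in *Gde2*KO it was at 17.7, 16.5 and 22.1 and then at 16.6, 55.7 and 28.5 (0.67, limma adjusted p = 0.271). Of the 31-base words in *Oas1a* 68.8% also occur in other genes, mostly *Oas1g*, so its level is uncertain, while *Oas2* shares none. *Oasl2*, an OAS-like protein, rose in *Gde2*KO from 85.0, 96.1 and 78.5 to 125, 224 and 129 (log2 difference 0.83, limma adjusted p = 0.0323), and in WT it was at 99.96, 86.9 and 87.0 and then at 104, 154 and 139. All 5 OAS genes had positive differences in both genotypes. The calls of *Oas2* held without any 1 library, while *Oas1a* was not called without WT A, nor *Oasl2* without *Gde2*KO B.

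*Irf7*, the factor that drives transcription of type I interferon genes, rose in WT from 49.7, 29.6 and 46.0 normalized counts to 69.9, 176 and 81.5 (log2 difference 1.29, limma adjusted p = 0.0817). The call was lost without WT library 1 or 2 of 4 months or without WT B or WT C, with adjusted p by limma from 0.111 to 0.275 and log2 differences from 0.88 to 1.43, and also with no filter on low values or no intensity trend. In *Gde2*KO it was at 43.9, 44.0 and 83.5 and then at 33.2, 121 and 71.0, with overlap. *Irf9* had smaller but even differences that stayed under the fold limit, 0.33 in WT (limma adjusted p = 0.0474) and 0.41 in *Gde2*KO (limma adjusted p = 0.0194), and its 19-month libraries were above its 4-month libraries in both genotypes.

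*Bst2*, which encodes tetherin, a protein that holds budding virus at the cell surface, rose in WT from 84.3, 80.4 and 69.9 normalized counts to 126, 163 and 132 (log2 difference 0.83, limma adjusted p = 0.0494), and was not called without WT library 2 of 4 months or WT B. In *Gde2*KO it was at 87.7, 57.7 and 95.9 and then at 91.2, 181 and 132, and its log2 difference of 0.72 lay just inside the fold limit. *Ddx58* rose in *Gde2*KO from 139, 156 and 124 to 269, 251 and 181 (log2 difference 0.72, limma adjusted p = 0.0159), just past that limit. The highest value was in the shallow library A, without which the log2 difference was 0.61 and not called. The call was also lost without *Gde2*KO library 1 or 3 of 4 months or *Gde2*KO B. It was lost as well with pseudocounts of 1 and 5, on gene-level TPM and with library quality weights. In WT it was at 158, 153 and 148 and then at 205, 195 and 188 (log2 difference 0.35, limma adjusted p = 0.160), without overlap.

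*Herc6* rose in WT, to 643, 717 and 927 normalized counts at 19 months from the values given for 4 months (log2 difference 1.25, limma adjusted p = 0.0140), and stood at 786, 843 and 763 in *Gde2*KO. Against WT library 3 alone the log2 difference in WT was 0.39. *Xaf1* rose in WT by 1.67 on the log2 scale (limma adjusted p = 0.0276) through WT A and B, with WT C at 152, and was not called without WT library 2 of 4 months or WT A.

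In WT 15 of the 35 genes (42.9%) were higher at 19 months without overlap and 0 lower, and 19.3% of all genes were higher without overlap. In *Gde2*KO 4 (11.4%) were higher, namely *Ddx58*, *Irf9*, *Oas2* and *Oasl2*, against 11.3% of all genes, and 2 (5.71%), *Cmpk2* and *Ifit2*, were lower, against 29.9% of all genes. Markers of other cells moved between the ages as well. In WT blood markers summed to 2320 to 4629 at 4 months and 3952 to 20355 at 19 months, and those of neutrophils and monocytes to 53.7 to 79.2 and then 116 to 265. Endothelial markers summed to 3384 to 4324 and then 4408 to 5580, without overlap, and T-cell markers to 90.2 to 301 and then 279 to 334. Astrocyte markers summed to 30052 to 52609 and then 22277 to 24013. Microglial markers summed to 7427 to 9473 and then 8200 to 8912 in WT. Oligodendrocyte markers summed to 85965 to 109391 and then 59343 to 79933 in WT. Neuron markers summed to 168920 to 183315 and then 200176 to 207091 in WT, likewise without overlap. In *Gde2*KO, neutrophil and monocyte markers summed to 52.1 to 76.0 and then 60.3 to 114, endothelial markers to 4138 to 4742 and then 3803 to 4938, and T-cell markers to 326 to 797 and then 284 to 304. Oligodendrocyte markers there summed to 107406 to 121646 and then 71800 to 93838, without overlap, and neuron markers to 175989 to 245335 and then 185476 to 196379. Microglial markers there summed to 9182 to 14141 and then 7593 to 10812, and astrocyte markers to 28946 to 36487 and then 24261 to 32693. *S100a8* and *S100a9* were at 0 in at least 1 library. Striatal markers summed to 14744 to 36309 and then 5281 to 10762 in *Gde2*KO, without overlap. In WT they summed to 1835 to 27146 and then 3880 to 5879, with overlap, and the 27146 was that of WT library 3. The part of these cells and of the striatal tissue in the age differences was not tested.

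**Figure D5:**
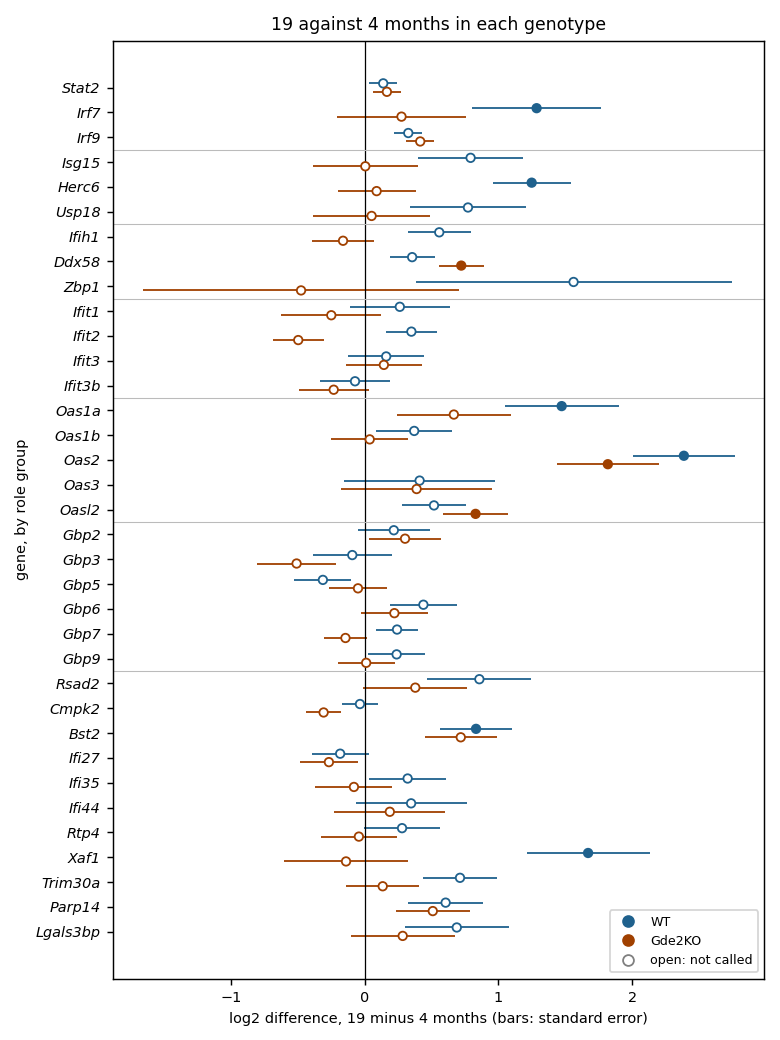
Points are log2 differences, 19 minus 4 months, of each gene of the set in WT (blue) and *Gde2*KO (brown), with bars for the standard error from limma; filled points are called. The 9 called values are all positive, led by *Oas2* at 2.39 in WT and 1.82 in *Gde2*KO.

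The wider pathway was compared in the same fits. Of 37 tested genes for interferon receptors, kinases, STATs, regulatory factors, sensors, adaptors and negative regulators, 0 were called by limma in either genotype comparison, with 4 at an unadjusted p under 0.05 at 4 months (10.8%, against 10.6% of all genes) and 0 at 19 months. Between ages 1 of the 37 was called higher in WT (2.70%, against 6.29% of all genes) and 1 lower in *Gde2*KO (2.70%, against 9.32%). *Socs3*, an inhibitor of JAK signalling, rose in WT (log2 difference 1.94, limma adjusted p = 0.00913) from 41.8, 40.5 and 123 normalized counts to 200, 301 and 199.7. The lower values of 4 months were those of WT libraries 1 and 2, high in hippocampal markers. *Aim2*, a sensor of cytosolic DNA, fell in *Gde2*KO from 89.8, 109.7 and 116 to 22.5, 83.5 and 54.9 (log2 difference -1.14, limma adjusted p = 0.0869). Its lowest value, 22.5, was in the shallow *Gde2*KO A, where 1 read was worth 8.29 normalized counts.

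Other interferon-stimulated genes outside the set were compared in the same fits. Of 60 tested at 4 months and 63 at 19 months, 0 were called by limma for genotype, with 9 (15%) and 7 (11.1%) at an unadjusted p under 0.05, against 10.6% and 6.91% of all genes. Between ages 62 were tested. In WT 15 rose (24.2%) and 1 fell (1.61%), against 6.29% and 7.40% of all genes. These calls were not counted without WT libraries 1 and 2 of 4 months, high in hippocampal markers. In *Gde2*KO 1 rose (1.61%) and 3 fell (4.84%), against 2.55% and 9.32% of all genes. *Gbp2b*, a guanylate-binding protein, was listed at 0 to 1.21 normalized counts in the 6 libraries of 4 months and at 16.6 to 41.5 in the 6 libraries of 19 months, and was called in WT (limma adjusted p = 0.00146) and in *Gde2*KO (limma adjusted p = 0.00074). *Ifitm3*, which blocks viral entry, rose in WT from 212, 178 and 192 to 382, 523 and 378 (log2 difference 1.13, limma adjusted p = 0.00542). *Isg20*, an exonuclease, rose in WT from 15.4, 13.97 and 17.5 to 121, 49.96 and 39.4. *Pml*, the organizer of PML nuclear bodies, rose in WT from 279, 296 and 428 to 517, 587 and 565 (0.76 on the log2 scale). Its lower values of 4 months were those of WT libraries 1 and 2. *Mndal*, of the AIM2-like family, fell in WT by 1.77 on the log2 scale, with 127 and 135 in WT libraries 1 and 2 of 4 months and 30.2 in WT library 3. In *Gde2*KO *Ifi208*, *Trim34a* and *Ifit1bl1* fell by 1.25, 1.10 and 0.78 on the log2 scale.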

How the data were processed

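RNA from mouse cortex was sequenced in 12 libraries, 1 per animal. Reads were quantified by the authors with Kallisto on GRCm38 transcripts and scaled with Sleuth, per the study's methods. Versions of both are not given in the sources used here. The authors deposited a table of signal values, which are estimated counts divided by a size factor per library (called normalized counts here), and a second table of signal values, which are TPM divided in the same way. Depth was taken from the value of 1 read in each library. Between 46.7% and 62.9% of gene values were whole reads within 0.01 read, so no count model was used.

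Transcripts (118489) were summed to genes. Genes with 5 normalized counts or more in at least 47% of the libraries were tested with limma 3.58.1 (R 4.3.3) with an intensity trend on log2(value + 0.5), separately at each age for genotype and over 12 libraries in 4 groups for the interaction and for age. Fold changes on this scale understate those of low genes. Calls needed a Benjamini-Hochberg adjusted p over all genes of less than 0.1 and a natural-log fold beyond 0.5 either way (log2 0.721). No fold limit was set for the interaction. Usage was called by limma diffSplice on transcripts averaging at least 5, with the same limit on p and more than 10 points of change in mean TPM share. That test pools variance over the transcripts of a gene, which are not independent replicates. The 35 genes and all gene lists were chosen with earlier results of these data known. Values per library are given for *Gdpd5*, for genes called, and in each genotype comparison for the 5 genes of smallest p and those without overlap between groups. Of the other lists, some of the called genes are named. Gene positions come from GENCODE vM21, promoters from RefSeq (GRCm38.p6), and 31 bases is the default word length of Kallisto. The fits were tested on simulated data. Other pseudocounts, filters, scalings, thresholds, library weights and variance models, a replicate block and libraries left out were tried, and the setting without WT libraries 1 and 2 of 4 months was chosen after seeing the data. Some items are not reported here.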

Additional observations from a re-analysis of the deposited data

How the results depend on the processing

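The count of 1 gene called for genotype at 4 months stood beside 0.126% of all genes. It became 0 with no filter on low values (0.0443% of all genes), with gene-level TPM (0.0683%) and with no intensity trend (0.0630%). In the fit of all 12 libraries (0.128%) and at an adjusted p under 0.05 (0.0630%) it was 0 too. Without the 2 WT libraries high in hippocampal markers, which leaves 1 WT library, the median was 0.10 for the set and 0.11 for all genes. The count became 5 with library quality weights, whose estimation stopped before convergence (14.3% of the set, 15.4% of all genes). When 1 library was left out it ran from 0 to 4, beside 0.0265% to 8.03% of all genes. It was 4 (*Herc6*, *Ifih1*, *Ifit2* and *Xaf1*) without WT library 3 (11.4%, against 8.03% of all genes). At 19 months the count was 0 in each alternative, beside 0.0377% to 0.414% of all genes. The interaction gave 8 genes with library quality weights (22.9%, against 46.7% of all genes). With 1 library left out it gave 0 to 2, with 2 without WT library 3 of 4 months (5.71%, against 10.95% of all genes). For age in WT the count of 6 became 14 with quality weights (40%, against 22.6%). With 1 library left out it ran from 3 without WT library 2 of 4 months (8.57%, against 8.23% of all genes) to 9 without WT library 3 (25.7%, against 16.7%). Without the 2 hippocampus-rich libraries, which leaves 1 WT library of 4 months, the median of the set was 0.24, against 0.37 with all libraries. For age in *Gde2*KO the count of 3 became 6 (17.1%) with quality weights, with no fold limit and without both low-depth libraries (against 17.8%, 32.3% and 12.8% of all genes), and ran from 2 to 6. For usage at 4 months the count of 1 became 0 under the replicate block, where 97 of all 12235 genes tested were called. With 1 library left out it ran from 0 to 1, beside 83 to 659 of all genes. The setting without the 2 hippocampus-rich libraries leaves 1 WT library, so no usage count is given for it. At 19 months the usage count ran from 1 to 2. *Herc6* was added without WT C, where 58 of all 12260 genes tested were called. *Gbp3* at 4 months was at -0.0199 in gene-level TPM and *Isg15* at 19 months at 0.00911 without both low-depth libraries, each reversed in sign. The cause of these changes was not tested. At 4 months same-numbered libraries did not deviate together (r = 0.0596, 0.00709 and -0.0477), so the numbers were not taken as pairs. With a replicate block 1 gene was called at 4 months, as without it. No paired analysis was possible at 19 months because the columns carry no replicate number. In the low-depth libraries genes with few reads are poorly resolved.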
